A study of Mus musculus with 10 samples.

Results

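Matrix metalloproteases (MMPs) and their tissue inhibitors (TIMPs) were examined in macrophages sorted from mouse mammary tumours. The genes are Mmp2, Mmp8, Mmp9, Mmp12, Mmp13, Mmp14, Mmp19, Timp1, Timp2 and Timp3, and each was taken by its symbol. All 10 were found, each as a locus of its own, among the 46957 loci of every table, and 9 of them had enough fragments to be tested. Timp3 did not. The tumours were 4T1, a mouse mammary carcinoma line, implanted into the fat pad of BALB/cJ hosts. Vehicle mice received PBS, and the others received JHU083 at 1 mg/kg from day 7 to day 13. JHU083 releases 6-diazo-5-oxo-L-norleucine, an antagonist of glutamine, and it was given to the animal, so it could act on tumour and host cells alike. Tumours of both groups were harvested on day 14. Live CD45+ CD11b+ F4/80+ cells without CD8, Ly6C and Ly6G were sorted, with 5 samples in each group. The labels do not say whether a sample was 1 mouse or several, so p-values measure the spread between these samples.

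MMPs are zinc-dependent proteases that are made as inactive zymogens and cut extracellular matrix, cytokines and one another. TIMPs bind the active site of MMPs and block it, and TIMP-2 also takes part with MMP-14 in the activation of MMP-2 at the cell surface. Tumour macrophages are a known source of these proteases, which are studied for their part in invasion, angiogenesis and matrix turnover. Transcript levels say nothing of how much zymogen was activated.

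Libraries held between 11147870 and 15740699 fragments. A value of 0 was listed for Rn18s-rs5 and Gm42418 in 5 of the 10 libraries (vehicle replicates 2, 4 and 5 and JHU083 replicates 1 and 3) and these loci took 2.87% to 5.59% of fragments in the others. Values within these sets of libraries are given below. Among markers of the sorted cells, Csf1r, the receptor for macrophage colony-stimulating factor, had a mean of 1836 ± 88.0 CPM in vehicle samples (SD, n = 5) and 2621 ± 205 CPM after JHU083. CPM here is the fragment count scaled to library size and by TMM factors. Of 8 macrophage markers, Csf1r, Adgre1 and Mertk were higher, 0 were lower and Cd68, Itgam, Fcgr1, C1qa and C1qb were not called. Ly6g, Cd8a and Ly6c2 had under 1 CPM in every library. Transcripts of other cell types were present and differed between the groups. The summed level of 11 tumour epithelial genes ran from 290.5 to 632.3 CPM in vehicle and from 102.3 to 217.9 CPM in JHU083, and all 10 that could be tested were lower. That of 8 fibroblast genes ran from 106.8 to 231.3 CPM and from 28.5 to 118.4 CPM, with 6 lower. That of 6 endothelial genes ran from 129.8 to 217.1 CPM and from 43.5 to 93.4 CPM, and most of it was Pecam1. Among 4 tested, Pecam1 was lower (150.5 ± 32.5 and 52.6 ± 20.2 CPM, SD, n = 5). Tie1 was higher (7.16 ± 1.21 and 10.6 ± 0.74 CPM), and Cdh5 and Kdr were not called. B cell genes, and Cd3e and Cd3d of T cells, stayed under 1 CPM, while Cd4 rose from 14.7 ± 1.37 to 31.8 ± 5.98 CPM (SD, n = 5, edgeR adjusted p = 2.07e-05). In RNA from a sorted population, fewer cells of a type and less RNA per cell cannot be told apart.

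JHU083 was compared with vehicle by edgeR's quasi-likelihood test over 12500 loci, and a gene was called at a Benjamini-Hochberg adjusted p under 0.05. The treatment moved a large part of the transcriptome: 36.7% of the loci tested were called, 18.4% as higher and 18.3% as lower. With scaling to library size alone, 1564 loci were higher and 3141 lower, against 2296 and 2293 here. Of the 9 members tested, 4 were higher (Mmp2, Mmp12, Mmp19 and Timp2), 2 were lower (Mmp9 and Mmp13) and 3 were not called (Mmp8, Mmp14 and Timp1). With scaling to library size alone, 2 members were higher (Mmp2 and Timp2) and 4 lower (Mmp8, Mmp9, Mmp13 and Mmp14). The median log2 fold change of the 9 was -0.17, beside 0.01 over all loci, and their median absolute change was 0.62, beside 0.26. The groups did not overlap for 4 of the 9 (Mmp2, Mmp9, Mmp13 and Timp2), against 22.3% of all loci.

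**Figure D1:**
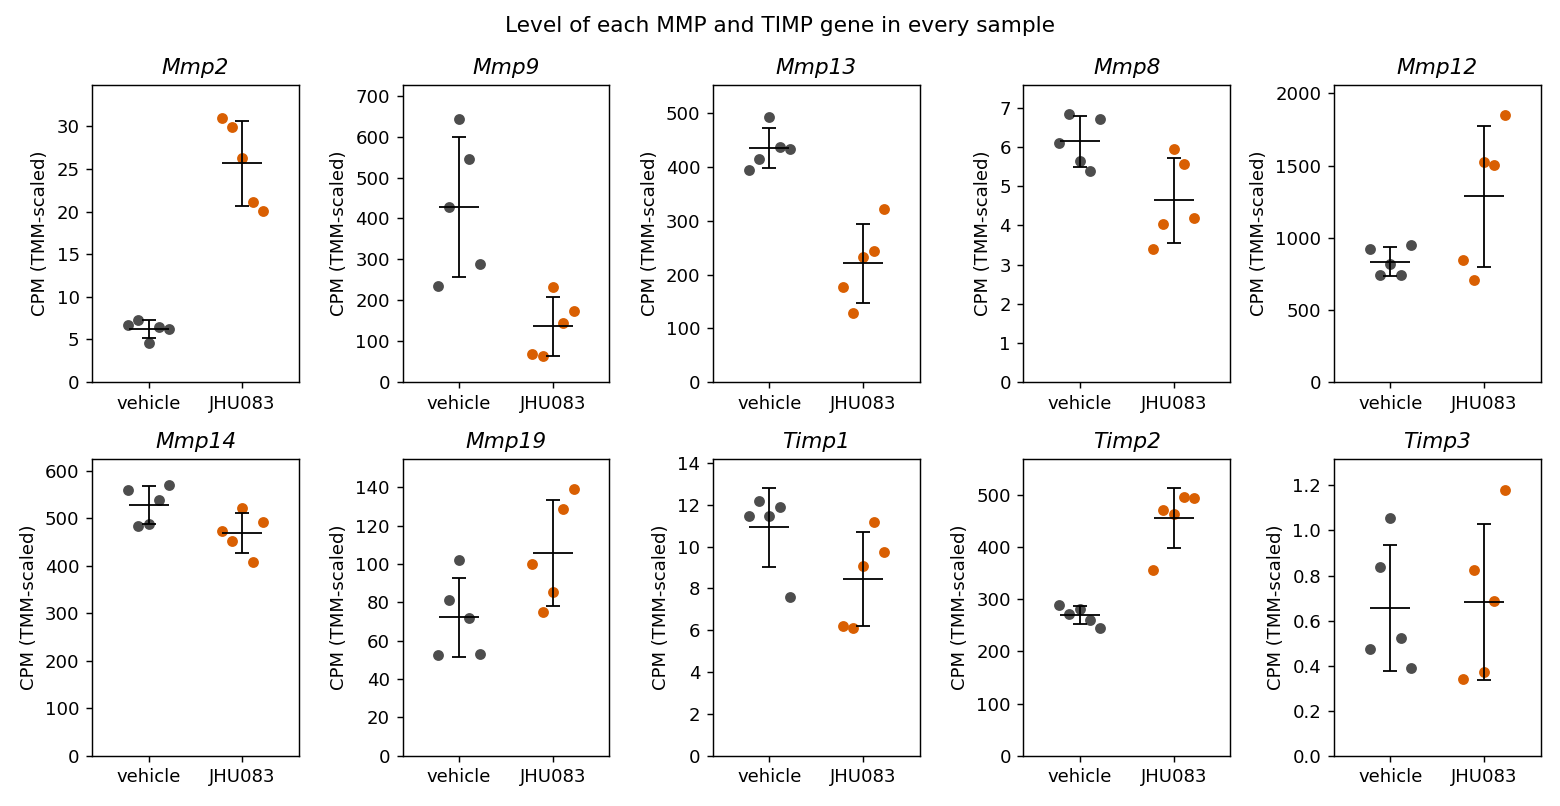
TMM-scaled CPM (linear vertical axes starting at 0) of the 10 genes in the 5 vehicle and 5 JHU083 samples, drawn from left to right as replicates 1 to 5. Bars are the mean and SD. Mmp2 and Timp2 lie wholly above vehicle in JHU083, Mmp9 and Mmp13 wholly below, and the other panels overlap.

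The gelatinases, which cut denatured collagen and basement membrane collagen, went in opposite directions. Mmp2, which encodes gelatinase A (chromosome 8, 92827291 to 92853420, GRCm38), had 6.66, 7.24, 4.53, 6.43 and 6.26 CPM in vehicle replicates 1 to 5. In JHU083 it had 31.0, 29.9, 26.2, 21.1 and 20.1 CPM. Every JHU083 sample lay well above every vehicle sample. The mean rose from 6.22 ± 1.02 to 25.7 ± 4.95 CPM (SD, n = 5), which is 4.12 times as much, and the log2 fold change was 2.04 ± 0.16 (SE, edgeR adjusted p = 1.45e-06). It ranked 34 from the highest of the 12500 loci. Stromal fibroblasts also make this enzyme, and 6 of 8 fibroblast markers were lower in JHU083, among them Col1a1, a chain of type I collagen, at -1.06 ± 0.33 (SE, adjusted p = 0.0210) and Pdgfra, a growth factor receptor, at -1.17 ± 0.32 (SE, adjusted p = 0.0101). The part of these cells in the Mmp2 level was not tested.

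Mmp9, which encodes gelatinase B (chromosome 2, 164940780 to 164955850), had 236, 429, 644, 547 and 288 CPM in vehicle and 67.8, 63.5, 233, 145 and 173 CPM in JHU083. The groups did not overlap but nearly touched, at JHU083 replicate 3 and vehicle replicate 1. Within each group the samples spread widely, with a coefficient of variation of 39.9% in vehicle and 52.7% in JHU083. The mean fell from 428.7 ± 171.2 to 136.5 ± 72.0 CPM (SD, n = 5). On the log2 scale the change was -1.65 ± 0.35 (SE, edgeR adjusted p = 0.00237). Neutrophils store the enzyme in granules. Of 10 neutrophil markers, Ly6g, Ngp, Camp, Elane and Mpo stayed under 1 CPM in every library, and the summed level of the list was 36.7 to 48.8 CPM in vehicle and 13.6 to 66.2 CPM in JHU083. Of the 4 markers tested, S100a8 and S100a9 were lower and Cxcr2 and Retnlg were not called (0.60 and 0.45 on the log2 scale, edgeR adjusted p = 0.222 and 0.490). S100a9, a calcium-binding protein abundant in neutrophils, was at 16.2 ± 1.98 and 3.61 ± 2.31 CPM (SD, n = 5, adjusted p = 0.000196). The epithelial and fibroblast totals fell as well, and the part of other cells in the Mmp9 level was not tested.

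The collagenases cut the triple helix of fibrillar collagen. Mmp13, collagenase 3 (chromosome 9, 7272514 to 7283331), had 395, 415, 494, 438 and 433 CPM in vehicle. The JHU083 samples had 177, 127, 232, 244 and 322 CPM, each below the lowest vehicle sample. Vehicle samples were close together, with a coefficient of variation of 8.47%, and JHU083 samples were not, at 33.3%. The mean fell from 435 ± 36.9 to 220.5 ± 73.4 CPM (SD, n = 5). In log2 this is -0.98 ± 0.18 (SE, edgeR adjusted p = 0.000931).

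Mmp8, the neutrophil collagenase (chromosome 9, 7558456 to 7568485), was rare, with 6.11, 6.86, 5.66, 5.39 and 6.73 CPM in vehicle and 3.41, 4.04, 5.96, 5.58 and 4.19 CPM in JHU083. Of the JHU083 samples, 3 lay below every vehicle sample and the others among them. The log2 fold change was -0.41 ± 0.17 (SE), with a 95% interval from -0.78 to -0.05 before adjustment, and the call was missed (edgeR adjusted p = 0.0732). It was made with scaling to library size alone, at -0.50 (edgeR adjusted p = 0.0312), and without JHU083 replicate 3, at -0.52 (edgeR adjusted p = 0.0224). limma-voom with sample quality weights also called it, at -0.45 (adjusted p = 0.0319).

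Mmp13 and Mmp8 belong to a cluster of MMP genes on chromosome 9 that also holds Mmp12, Mmp3, Mmp10 and Mmp27, and these neighbours were called in both directions. Mmp12 was the only one called higher, narrowly (edgeR adjusted p = 0.0352), and it was called under only 12 of 24 alternative analyses. From low to high coordinate, the tested genes had log2 fold changes of -0.98 (Mmp13), 0.62 (Mmp12), -3.13 (Mmp3), -1.43 (Mmp10), -0.41 (Mmp8) and -0.58 (Mmp27). Mmp3 encodes stromelysin 1, which cuts many matrix proteins and activates other MMPs. It fell from 6.83 ± 2.46 to 0.76 ± 0.36 CPM (SD, n = 5), with groups that did not overlap (log2 fold change -3.13 ± 0.35 SE, edgeR adjusted p = 2.07e-05). Mmp10, stromelysin 2, fell from 3.22 ± 0.90 to 1.19 ± 0.55 CPM (SD, n = 5, log2 fold change -1.43 ± 0.34 SE, edgeR adjusted p = 0.00477), with overlap. Both are genes that tumour and stromal cells can express, and the epithelial and fibroblast totals above fell with them. Their part in these changes was not tested.

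The stretches below end just before the transcription start (the earlier of the RefSeq and GENCODE starts) of the 6 tested cluster genes, and are shown because calls in both directions lie close together here. The higher call is that of Mmp12 alone, which many of the alternatives did not make. The fold changes of Mmp8 and Mmp27, which were not called, were also below 0, and differences between the genes were not tested. They come from RefSeq (GRCm38.p6), plus strand, 120 bases each. Capitals mark the heptamer TGAGTCA or TGACTCA, the classical binding motif of AP-1 (a dimer of Fos and Jun proteins), and the TATA box letters TATAAA.
Mmp13, chr9:7272394-7272513: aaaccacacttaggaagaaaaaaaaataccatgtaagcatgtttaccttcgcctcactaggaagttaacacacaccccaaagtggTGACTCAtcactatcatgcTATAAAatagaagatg
Mmp3, chr9:7445702-7445821: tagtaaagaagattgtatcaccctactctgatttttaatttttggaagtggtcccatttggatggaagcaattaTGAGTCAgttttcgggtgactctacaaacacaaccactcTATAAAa
Mmp10, chr9:7502222-7502341: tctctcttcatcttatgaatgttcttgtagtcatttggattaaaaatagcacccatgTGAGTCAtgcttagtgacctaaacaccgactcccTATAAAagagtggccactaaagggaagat
Mmp12, chr9:7344261-7344380: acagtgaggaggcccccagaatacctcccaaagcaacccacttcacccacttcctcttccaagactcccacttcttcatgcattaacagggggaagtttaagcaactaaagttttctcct
Mmp8, chr9:7558309-7558428: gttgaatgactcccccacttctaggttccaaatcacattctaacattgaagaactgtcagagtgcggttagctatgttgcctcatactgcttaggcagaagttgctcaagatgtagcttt
Mmp27, chr9:7571276-7571395: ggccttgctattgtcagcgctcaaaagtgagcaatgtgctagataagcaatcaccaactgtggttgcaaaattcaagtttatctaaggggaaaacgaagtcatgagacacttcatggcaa

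The heptamer was searched in the 250 bases before each RefSeq start. Its 2 forms are reverse complements, so both strands were covered, and neither overlaps TATAAA, which was searched on the strand of the gene only. The heptamer began 35 bases before the start of Mmp13, 46 before that of Mmp3 and 63 before that of Mmp10, each time upstream of a TATAAA. Neither set of letters was found before the first start of Mmp12 or before Mmp8 and Mmp27. A second RefSeq start of Mmp12, inside the gene, has a heptamer 44 bases upstream. Of all 32851 such windows 4.46% hold the heptamer and 7.6% hold TATAAA. Among the members, 7 had an entry, and the heptamer was in the window of Mmp13 and in that of the second Mmp12 start. The motifs were chosen with the fold changes known, and a match is a run of letters, not a measured binding site.

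**Figure D2:**
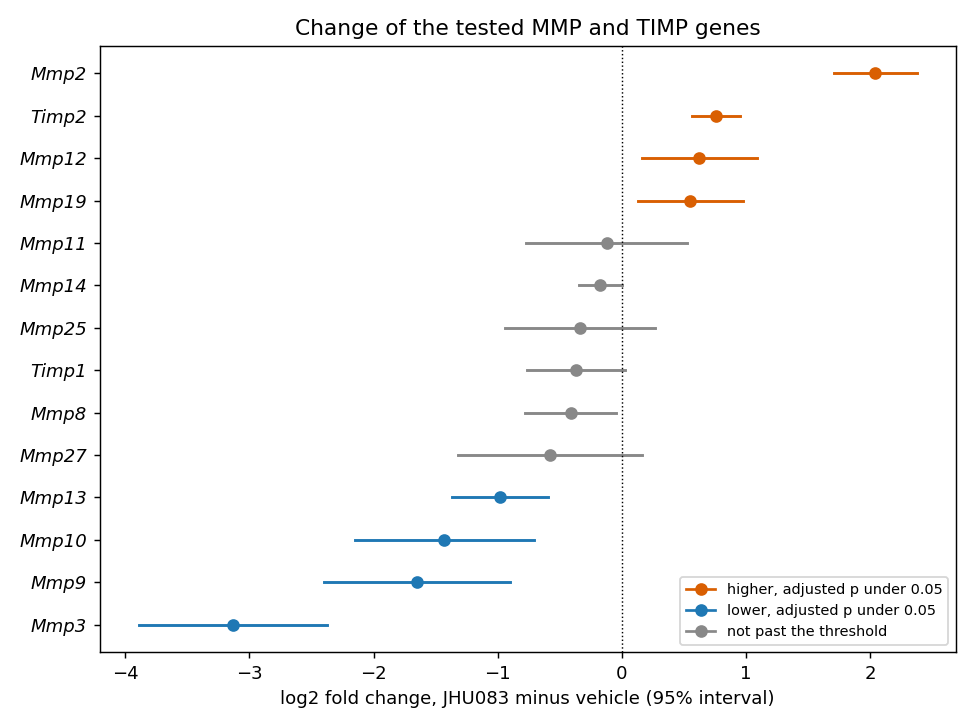
Log2 fold change (JHU083 minus vehicle) with its 95% interval before adjustment for the tested MMP and TIMP genes, coloured by the edgeR call. Mmp2 lies highest at 2.04 and Mmp3 lowest at -3.13.

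Mmp12, the macrophage elastase, which breaks down elastin, was the most abundant member by length-adjusted level in every sample (chromosome 9, 7344381 to 7369499). Mmp1b, on the other strand over its last 1261 bases, had at most 2 fragments. Mmp12 had 923, 743, 816, 741 and 950 CPM in vehicle and 847, 706, 1525, 1503 and 1849 CPM in JHU083. JHU083 replicate 1 lay within the vehicle range and replicate 2 below it, and the other 3 lay well above all vehicle samples. The mean was 835 ± 98.2 CPM in vehicle and reached 1286 ± 488 CPM with JHU083 (SD, n = 5), and the log2 fold change of 0.62 ± 0.22 passed the test narrowly (SE, edgeR adjusted p = 0.0352). The call was lost without any one of vehicle replicates 2, 3 and 4 and JHU083 replicates 3, 4 and 5, where the change ranged from 0.46 without JHU083 replicate 5 to 0.615 without vehicle replicate 3, and the edgeR adjusted p from 0.0504 to 0.103. It was also lost with limma-voom (adjusted p = 0.0683), library-size scaling (0.0537), the status of the libraries at Rn18s-rs5 and Gm42418 as covariate (0.0522) and the replicate block (0.0593). JHU083 replicates 1 and 2 were also the lowest of their group for Mmp9, Mmp13, Mmp8 and Timp1, and the highest for Mmp2.

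Mmp19 encodes a secreted protease with a broad range of basement membrane substrates (chromosome 10, 128790910 to 128800824). Its level was 52.6, 81.1, 102, 71.9 and 53.0 CPM in vehicle and 99.97, 74.8, 85.6, 129 and 139 CPM in JHU083. The groups overlapped, with 2 JHU083 samples above all of vehicle. The mean was 72.1 ± 20.7 and 106 ± 27.5 CPM (SD, n = 5), and the log2 fold change was 0.55 ± 0.20 (SE, edgeR adjusted p = 0.0406). This call was lost without any one of vehicle replicates 1, 2, 4 and 5 and JHU083 replicates 1, 4 and 5 (0.44 to 0.59, edgeR adjusted p from 0.0519 to 0.11). It was also lost with library-size scaling (adjusted p = 0.0849), with that status as covariate (0.0663) and with the replicate block (0.0841). The annotation places Tmem198b over the last 789 bases of Mmp19 on the other strand and the antisense gene Gm47093 over all of it, and no source used here says that strand was used in counting. Tmem198b had 379 to 704 fragments and a log2 fold change of 0.28 (edgeR adjusted p = 0.0805).

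Mmp14, a membrane-anchored collagenase that also activates the MMP-2 zymogen (chromosome 14, 54431612 to 54445364), was abundant. It had 560.5, 485, 489, 539 and 572 CPM in vehicle and 474, 452, 521, 408 and 492 CPM in JHU083, with overlapping groups. The log2 fold change was -0.17 ± 0.08 (SE), with a 95% interval from -0.34 to -0.002 before adjustment, and did not pass (edgeR adjusted p = 0.103). It passed with scaling to library size alone, at -0.25 (edgeR adjusted p = 0.0139), and without JHU083 replicate 3, at -0.21 (edgeR adjusted p = 0.0328). limma-voom with sample quality weights also called it (adjusted p = 0.031).

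Among the inhibitors, Timp2 (chromosome 11, 118301069 to 118355740) rose in every JHU083 sample. Vehicle had 288, 272, 282, 261 and 245 CPM, and JHU083 had 357, 472, 464, 496 and 494 CPM. Replicate 1 was the lowest of the JHU083 samples and still above all of vehicle. Cep295nl lies within Timp2 on the same strand over 10141 bases and was not analysed here. The mean rose from 269.6 ± 17.4 to 456.5 ± 57.4 CPM (SD, n = 5), 1.69 times as much, and the change in log2 was 0.76 ± 0.09 (SE, edgeR adjusted p = 3.18e-05).

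Timp1, a secreted inhibitor that binds the MMP-9 zymogen, is short and was lowly expressed (chromosome X, 20870166 to 20874735, within the span of Syn1 on the other strand, which had at most 16 fragments). It had 11.5, 12.2, 11.5, 11.9 and 7.59 CPM in vehicle and 6.21, 6.10, 9.10, 11.2 and 9.76 CPM in JHU083. Replicate 5 stood apart from the other vehicle samples, and the groups overlapped. The log2 fold change was -0.37 ± 0.18 (SE), with a 95% interval from -0.76 to 0.02 before adjustment, and no call was made (edgeR adjusted p = 0.126). Timp3, an inhibitor held in the matrix (chromosome 10, 86300372 to 86349506), had 5 to 14 fragments in vehicle and 5 to 18 in JHU083. It fell below the filter on low counts and was not tested.

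The members called were also compared within the 5 libraries where Rn18s-rs5 and Gm42418 were listed at 0, and within the other 5. Mmp2 was 2.11 and 2.07 on the log2 scale (edgeR adjusted p = 0.000461 and 0.000341), Timp2 0.67 and 0.76 (0.0194 and 0.00123) and Mmp13 -1.06 and -0.95 (0.00358 and 0.0302). Mmp9 was -1.49 and -1.80, and the first of these missed the threshold (edgeR adjusted p = 0.0731 and 0.00925). Mmp12 was 0.55 and 0.63 (edgeR adjusted p = 0.164 and 0.146) and Mmp19 was 0.44 and 0.56 (0.164 and 0.174), with no call in either set.

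Levels of different genes were compared by the deposited FPKM, which are scaled for transcript length. In vehicle the order was Mmp12 (551 ± 64.0 FPKM, SD, n = 5), Mmp14 (205.5 ± 15.1), Mmp13 (162 ± 14.2), Mmp9 (133 ± 53.5), Timp2 (124 ± 7.61), Mmp19 (20.7 ± 6.02), Timp1 (15.6 ± 2.77), Mmp8 (2.52 ± 0.27), Mmp2 (2.49 ± 0.47) and Timp3 (0.14 ± 0.07). Mmp13, Mmp9 and Timp2 differed from one another by less than the spread of Mmp9, and the neighbours Mmp19 and Timp1, and Mmp8 and Mmp2, by less than the larger SD of each pair. In JHU083 Mmp12 led at 885 ± 335 FPKM, Timp2 (186 ± 18.6) and Mmp14 (183 ± 16.3) followed within 1 SD of each other, and Mmp13 (82.5 ± 27.3) and Mmp9 (42.3 ± 22.1) came after them. Mmp2, at 8.83 ± 1.91 FPKM, remained far below the abundant members.

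**Figure D3:**
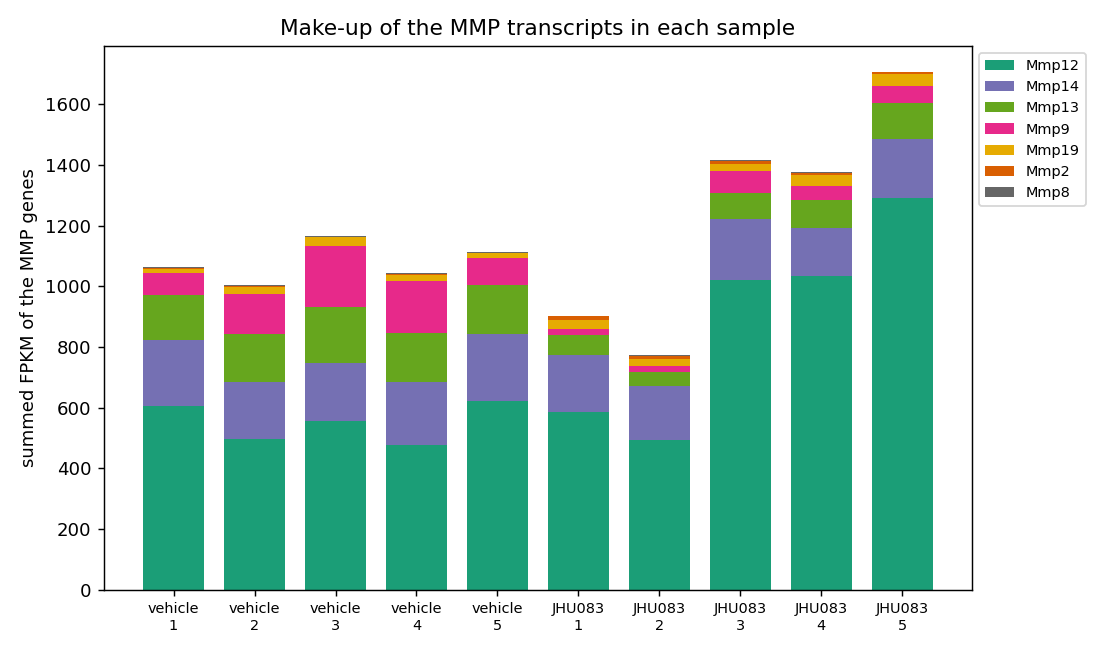
Summed FPKM of the 7 MMP genes in each sample (linear axis from 0), split by gene. Mmp12 makes up 45.8% to 57.0% of the sum in vehicle and 64.0% to 75.7% in JHU083, and the Mmp9 and Mmp13 parts are smaller in JHU083.

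The make-up of the MMP transcripts is given without a test, as a sum over chosen genes. Mmp12 held 51.1 ± 4.99% of the summed FPKM of the 7 MMP genes in vehicle and 70.4 ± 5.56% in JHU083 (SD, n = 5). The share of Mmp13 was 15.1 ± 0.87% and 6.67 ± 0.54%, that of Mmp9 was 12.3 ± 4.71% and 3.28 ± 1.07%, and none of these shares overlapped between the groups. A share also depends on the other genes in the sum. In JHU083 replicates 1 and 2 Mmp12 itself was at 586 and 494 FPKM, within the vehicle range of 477 to 621 FPKM. Mmp2, for all its rise, held 0.23 ± 0.05% and 0.82 ± 0.41%. The sum itself was 1078 ± 63.3 FPKM in vehicle and ran from 772 to 1707 FPKM in JHU083, on both sides of vehicle. Timp2 held 88.7 ± 1.99% of the summed FPKM of the 3 inhibitors in vehicle and 93.8 ± 1.34% in JHU083.

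Protease and inhibitor were then set against each other inside each library, where the scaling of the library cancels. The ratios use the same fragment counts as the fit above, so they are not independent of its calls. The log2 ratio of Mmp14 to Timp2 fragments, the pair that acts on the MMP-2 zymogen, was 0.96, 0.83, 0.79, 1.05 and 1.22 in vehicle and 0.41, -0.06, 0.17, -0.28 and -0.004 in JHU083. No JHU083 sample reached the lowest vehicle sample. The mean differed by -0.93 (0.97 ± 0.17 and 0.05 ± 0.26, SD, n = 5, exact two-sided permutation p = 0.0079, adjusted p = 0.0159 over the 3 ratios tested). This is the smallest p that 5 samples against 5 allow.

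The ratio of Mmp9 to Timp1 was 4.36, 5.13, 5.81, 5.52 and 5.24 in vehicle and 3.44, 3.37, 4.67, 3.70 and 4.15 in JHU083, with 4 of the 5 JHU083 samples below all of vehicle. Its mean differed by -1.345 (5.21 ± 0.545 and 3.87 ± 0.54, SD, n = 5, exact permutation p = 0.0159, adjusted p = 0.0159). Mmp12 to Timp1 went the other way, with 6.325, 5.93, 6.15, 5.96 and 6.96 in vehicle and 7.085, 6.85, 7.38, 7.07 and 7.56 in JHU083. Its mean was higher by 0.93 (6.26 ± 0.42 and 7.19 ± 0.28, SD, n = 5, exact permutation p = 0.0159, adjusted p = 0.0159), and 4 of the 5 JHU083 samples lay above all of vehicle. JHU083 replicates 1 and 2, which did not exceed the highest vehicle sample for Mmp12 itself, had the lowest Timp1 of the 10 libraries.

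**Figure D4:**
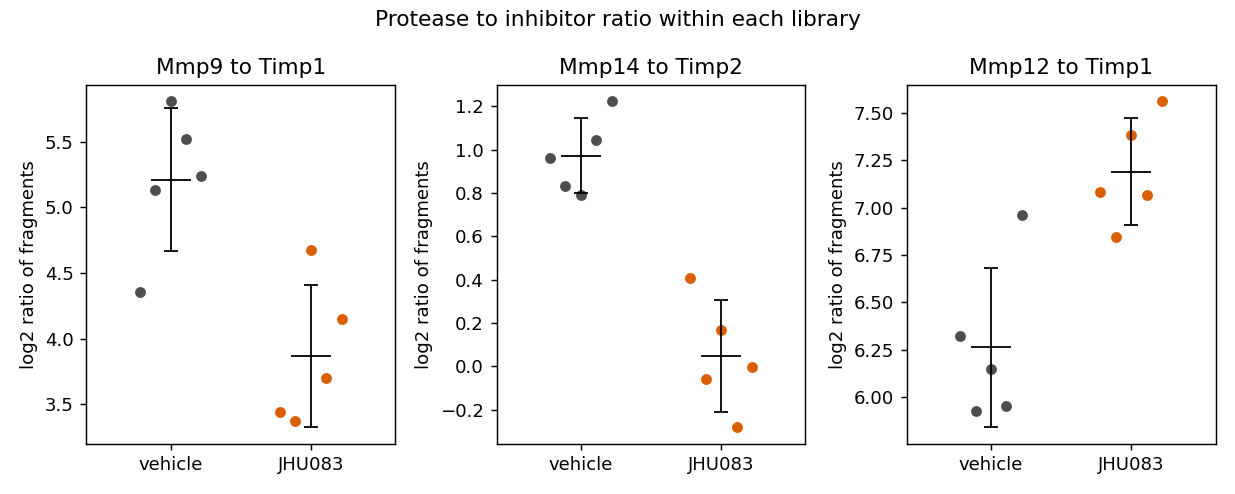
Log2 ratio of fragments of a protease gene to an inhibitor gene in each of 10 libraries (replicates 1 to 5 from left to right, mean and SD as bars). Mmp14 to Timp2 separates the groups, and the other ratios overlap by 1 sample.

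Genes around the MMPs were read from lists of known activators, inhibitors and substrates. Of 17 further MMP and TIMP genes, 12 were too low to be tested, among them Timp4, and of the 5 tested 2 were lower (Mmp3 and Mmp10) and 0 higher by edgeR, or 40% called beside 36.7% of all loci. DESeq2 and limma-voom also called 0 of the 5 higher, and 0 of them were higher at an unadjusted p under 0.05. Mmp25, a leukocyte membrane protease, had 7.71 ± 2.31 and 6.09 ± 2.43 CPM (SD, n = 5, edgeR adjusted p = 0.369). Mmp11 had 2.32 ± 0.72 and 2.12 ± 0.94 CPM (SD, n = 5, edgeR adjusted p = 0.782).

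In the plasminogen system, whose end product plasmin activates several MMP zymogens, 1 of the 9 tested genes reported here was higher and 3 were lower, or 44.4% called beside 36.7% of all loci. Plau, the activator urokinase, fell from 743 ± 43.9 to 575 ± 53.4 CPM (SD, n = 5, log2 fold change -0.37, edgeR adjusted p = 0.00261). Anxa2 and S100a10, which together form a plasminogen receptor, fell by 0.55 and 0.46 on the log2 scale (edgeR adjusted p = 0.00132 and 0.0138), and Serpinf2, a plasmin inhibitor, rose by 0.78 (adjusted p = 0.00541). Plaur, the urokinase receptor, was 368 ± 20.7 and 404 ± 68.0 CPM (SD, n = 5, edgeR adjusted p = 0.328).

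Of 13 tested ADAM and ADAMTS genes, relatives of the MMPs that shed cell surface proteins or cut proteoglycans, 4 were higher (Adam9, Adam10, Adam19 and Adamts10, by 0.24 to 0.51 on the log2 scale) and 3 lower, which is 53.85% called beside 36.7% of all loci. The lower ones were rare: Adamts4 at -1.81, Adam28 at -1.81 and Adamts1 at -1.26 (edgeR adjusted p = 0.00188, 0.00195 and 0.00754). Adam17, the TNF-releasing sheddase, had 135 ± 16.9 and 158 ± 18.9 CPM (SD, n = 5, edgeR adjusted p = 0.0912), and Adam8 had 275 ± 31.5 and 265 ± 103 CPM (adjusted p = 0.862).

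Among 14 tested activators, binding partners and clearance receptors, 4 were higher and 3 lower, or 50% called beside the same 36.7%. Lcn2, a lipocalin that forms a complex with MMP-9, fell from 15.8 ± 4.50 to 5.62 ± 1.46 CPM (SD, n = 5, log2 fold change -1.49, edgeR adjusted p = 0.000168). Thbs1, thrombospondin 1, rose from 90.7 ± 16.7 to 201 ± 64.7 CPM (SD, n = 5, 1.15, edgeR adjusted p = 0.000291), and Lrp1, an endocytic receptor that clears MMPs and TIMPs, from 702 ± 105 to 970 ± 170 CPM (0.47, adjusted p = 0.0124). Cd63, a tetraspanin that binds TIMP-1, rose by 0.41 (edgeR adjusted p = 0.00708) and Cd82, another tetraspanin, by 0.23 (0.0470). Bsg, the MMP inducer basigin, fell by 0.30 and Sdc1, a proteoglycan of epithelial cells, by 0.97 (edgeR adjusted p = 0.0242 and 0.00302). All 10 tested epithelial markers were lower alongside Lcn2 and Sdc1. Of the 4 neutrophil markers tested, S100a8 and S100a9 were lower, and Cxcr2 and Retnlg were not called (0.60 and 0.45 on the log2 scale). The summed level of the 10 neutrophil markers overlapped between the groups (36.7 to 48.8 CPM in vehicle, 13.6 to 66.2 CPM in JHU083). The part of these cells in the Lcn2 and Sdc1 levels was not tested. Reck, a membrane-bound MMP inhibitor, stood at 0.81 ± 0.20 and 0.51 ± 0.40 CPM (SD, n = 5, edgeR adjusted p = 0.277).

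Of 12 matrix substrates and matricellular genes, 8 were lower and 2 higher, which is 83.3% called beside 36.7% of all loci. Tgfbi, a secreted matrix adhesion protein, fell by 0.67 on the log2 scale (edgeR adjusted p = 0.000456). Fn1, fibronectin, rose from 5962 ± 552 to 8395 ± 828 CPM (SD, n = 5, 0.49, edgeR adjusted p = 0.00438), and the locus of Spp1, osteopontin, which also lists Gm42793, from 2359 ± 303 to 3292 ± 502 CPM (0.48, adjusted p = 0.00896). The largest decreases were in Hspg2, Tnc, Lamb1 and Vcan, which encode perlecan, tenascin C, a laminin chain and versican (-2.29, -1.93, -1.62 and -1.06, edgeR adjusted p = 0.000347, 0.000363, 0.00164 and 0.0129). The epithelial and fibroblast marker totals fell alongside them, and their part was not tested.

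**Figure D5:**
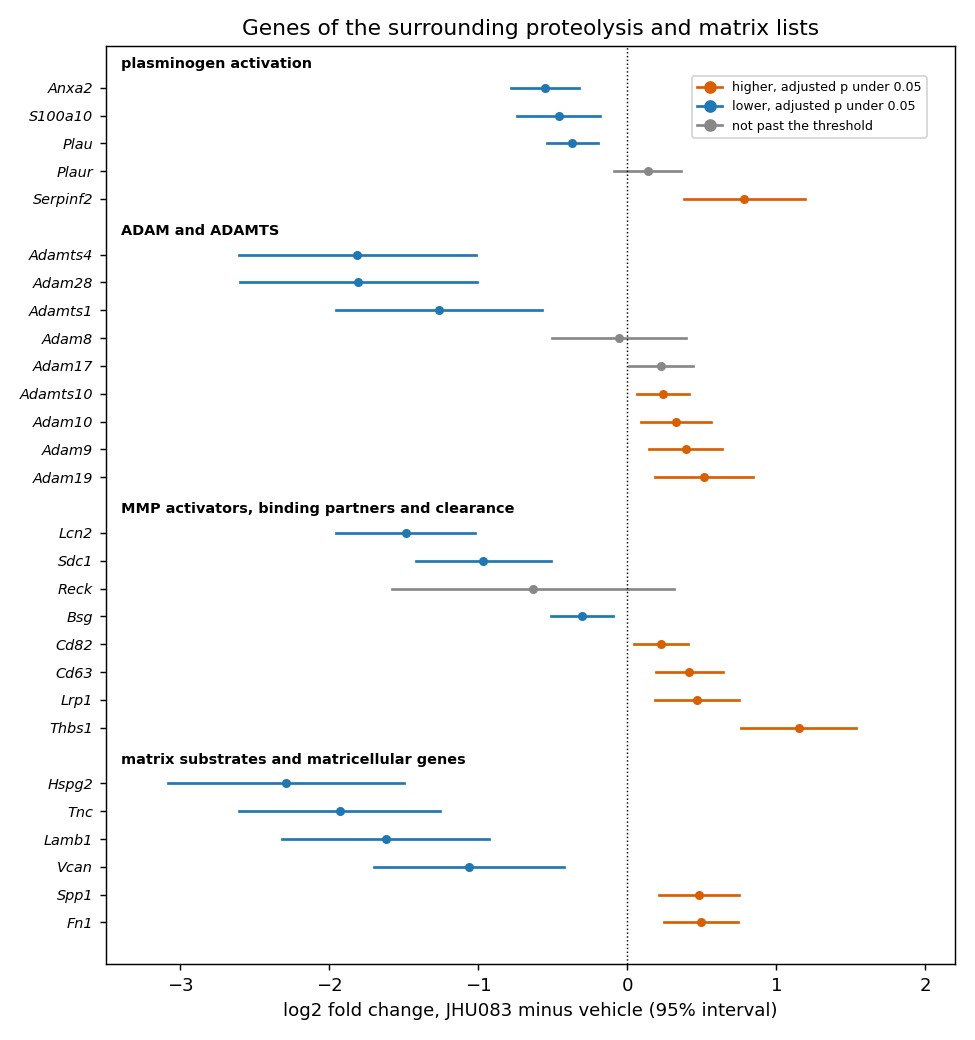
Log2 fold change (JHU083 minus vehicle) with its 95% interval before adjustment for genes of 4 lists around the MMPs, coloured by the edgeR call. Thbs1 at 1.15 is the highest and Hspg2 at -2.29 the lowest.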

How the data were processed

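Poly(A) RNA was sequenced from 10 samples, grouped by the treatment in the labels. Per the submitters' processing notes, bcl2fastq 2.17.1.14, FastQC 0.11.2, TopHat2 2.1.1 and GRCm38 were used. The counting program and annotation are not given in the sources used here. Per the file headers, the authors deposited raw and normalized values for each locus. The deposited raw values were taken for expected count values, which the authors made by a scaling that no source here states: at least 99.09% of the positive values in each library were whole multiples (within 0.02) of 1 step per sample, and dividing by it gave the fragment counts used. The deposited normalized values follow FPKM and served to compare levels between genes, for sums and shares of the MMP and TIMP genes, and as an alternative input for the ratios. The row with a blank symbol (0.0013% to 0.0021% of fragments) was left out.

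Counts were filtered by filterByExpr and tested with edgeR 4.0.16 (R 4.3.3, TMM, quasi-likelihood), with Benjamini-Hochberg adjustment over 12500 loci. The script was tested on simulated data. DESeq2 1.42.0, limma 3.58.1 (voom), other scalings, filters and inputs, left-out samples and a replicate block were alternatives. Log2 ratios used fragments plus 0.5 and an exact permutation test. Positions are from GENCODE M21. Members and lists were chosen with earlier results of these data known. All members are named. Of each list, up to 4 called genes per direction with the largest change and an average log2 CPM of at least 0 are named, plus Mmp3, Mmp10, Mmp11, Mmp25, Timp4, Reck, Bsg, Lrp1, Plau, Plaur, Adam8 and Adam17. In the plasminogen list, 1 gene is not reported here. Marker genes, Mmp27 (as a cluster neighbour) and Tgfbi were named after their values were seen.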

Additional observations from a re-analysis of the deposited data

Results flagged for a closer look

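Timp1 in vehicle replicate 5 lay at 7.59 CPM, away from the other vehicle samples at 11.47 to 12.19 CPM, and the gap was 0.869 of the whole range of the group on the log2(CPM + 0.5) scale. Timp2 in JHU083 replicate 1 lay at 356.9 CPM, below the others at 464.2 to 496.1 CPM, with a gap of 0.798 of the range on the same scale. The critical value for groups of 5 is 0.71. Across the 26 groups examined, chance gives about 1.3 such samples, since it marks about 1 group in 20.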

How the results depend on the processing

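Under 24 alternatives 0 member values reversed, and 0 ratio values reversed under the pseudocounts, FPKM input, block, left-out samples and sample sets run for them. Mmp2, Mmp13 and Timp2 were called under all 24, with log2 fold changes of 1.92 to 2.12, -1.15 to -0.84 and 0.67 to 0.84. Mmp9 was called under 23 (-1.93 to -1.46), Mmp12 and Mmp19 under 12 each, Mmp8 and Mmp14 under 3 each, and Timp1 under 0.

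Members called higher numbered 2 with library-size scaling, with status at the loci listed at 0 as covariate, and in either set of samples listed or not listed at 0, and 2 to 4 when single samples were left out. Members called lower numbered 4 with limma-voom quality weights and with library-size scaling, 1 in the samples listed at 0, and 2 to 4 with single samples left out. Loci called higher and lower were 532 and 586 in the samples listed at 0, and 1276 loci were higher in the others, where fewer samples entered each fit. Leaving out single samples gave 1821 to 2899 higher and 1900 to 2930 lower.

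The Mmp9 to Timp1, Mmp14 to Timp2 and Mmp12 to Timp1 ratios differed by -1.239, -0.747 and 0.954 in the samples listed at 0 and by -1.343, -0.993 and 0.922 in the others, an alternative chosen after seeing the data, where 10 splits cannot give an exact p under 0.1. Leaving out single samples gave -1.558 to -1.195, -1.017 to -0.844 and 0.833 to 1.101.

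With the replicate block, 2 members were higher, 1612 loci higher and 1757 lower, and the ratio differences of -1.345, -0.926 and 0.926 had an exact adjusted p of 0.0625, the smallest that 5 pairs allow. Deviations of same-numbered samples correlated at -0.569 to 0.091, and 0 vehicle samples correlated best with their own number. The numbers thus showed no sign of pairing, though such correlations cannot exclude a pairing in the design.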
